A study of Homo sapiens with 40 samples.

Results

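A set of 943 promoter regions was accessible in BT474 cells and had few or no peaks in their trastuzumab-resistant derivative BT474R. BT474 is a human ductal breast carcinoma line that overexpresses the receptor HER2. BT474R is clone 5, obtained by growing BT474 in the HER2 antibody trastuzumab for several weeks, so the resistant line stands for 1 clone. Accessible chromatin was profiled by Omni-ATAC, in which a transposase cuts open DNA, in serum-starved cells of both lines at baseline (0 h) and after EGF, heregulin (HRG) or vehicle (water, the control) for 1, 12 and 24 h. Each of the 20 groups had 2 libraries, 20 libraries per line and 40 in all, and nothing in the labels says whether the 2 replicates were separate cultures, so p-values measure the spread between these samples, which may be technical. Peaks of the 40 lists were merged into 76603 regions on chromosomes 1 to 22 and X, of which 21352 were promoter regions, with a midpoint within 1 kb of a GENCODE transcript start (GRCh38). A promoter was chosen if it had a peak in 18 or more of the 20 BT474 lists and in 4 or fewer of the 20 BT474R lists. The promoters were thus selected on the presence of a peak in the lists of both lines, so the difference between the lines is described here without a test.

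A promoter is the stretch of DNA around a transcription start where the polymerase and general factors assemble, and in active genes it is depleted of nucleosomes and readily cut by the transposase. Many promoters lie in CpG islands, GC-rich stretches that are usually unmethylated and open across tissues, whereas promoters with few CpGs are more often open in particular cell types. A gene may have several starts, and the annotation tags that of a representative transcript as canonical. Loss of a peak at an alternative start need not affect the others. Peaks show accessibility, not transcription.

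The libraries set a limit on all that follows. The BT474 lists held 47571 to 56846 peaks and the BT474R lists 32479 to 56494, and read depth is unknown. The lowest signal in every list was 200, so a promoter without a listed peak is not shown to be closed. The luminal markers KRT8, KRT18, KRT19, EPCAM, GATA3, FOXA1 and ERBB2 had a promoter region with a peak in all 20 lists of each line, and ESR1 in 20 BT474 and 19 BT474R lists. PTPRC (leukocytes) and PECAM1 (endothelium) had none, while COL1A1, a fibroblast collagen, had a promoter region with a peak in all 40.

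For 4 of the 6 protein-coding promoters that ranked highest in BT474 and had no BT474R peak, sequence near the peak's summit is shown. These 6 had the highest BT474 ranks among the protein-coding promoters that the resistant line's lists did not hold. Each is the part of the 200 bases around the median BT474 summit that overlaps no annotated exon, so each lies in an intron of the gene named, on the plus strand of GRCh38. For PRRT3 and for the promoter shared by CIDEB, LTB4R and LTB4R2 the whole window was exonic and none is printed. For ARHGEF17 (summit at 73342951) and CMTM3 (66604936) the summit itself was exonic and lies outside the printed stretch. Capitals mark matches to the searched motifs on either strand.
ARHGEF17, chr11:73342851-73342923: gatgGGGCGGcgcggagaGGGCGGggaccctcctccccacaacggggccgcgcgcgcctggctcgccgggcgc
PHF19, chr9:120868676-120868807: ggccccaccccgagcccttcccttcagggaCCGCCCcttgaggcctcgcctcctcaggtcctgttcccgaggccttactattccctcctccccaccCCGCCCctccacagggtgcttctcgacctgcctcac
PRDM9, chr5:23507397-23507596: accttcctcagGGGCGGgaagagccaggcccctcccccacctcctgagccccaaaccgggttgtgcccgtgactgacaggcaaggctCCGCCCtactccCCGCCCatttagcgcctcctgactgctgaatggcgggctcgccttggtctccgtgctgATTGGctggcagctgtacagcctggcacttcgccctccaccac
CMTM3, chr16:66604953-66605035: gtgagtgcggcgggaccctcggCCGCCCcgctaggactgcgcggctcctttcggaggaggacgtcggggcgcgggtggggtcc
All 4 stretches held at least 1 GC box (GGGCGG), the site bound by SP1 and KLF factors, and the PRDM9 stretch also held a CCAAT box.

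Of the 16196 promoter regions with a peak in 18 or more BT474 lists, the 943 chosen made up 5.82%. Of these, 563 had no peak in any BT474R list, 111 had a peak in 1, 85 in 2, 92 in 3 and 92 in 4. In BT474, 684 had a peak in all 20 lists, 143 in 19 and 116 in 18. Both extremes (20 and 0) were met by 420. The opposite pattern, 18 or more BT474R and 4 or fewer BT474 lists, was met by 246 promoters. Outside promoters, 3294 of 24569 regions with a peak in 18 or more BT474 lists met the same rule.

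**Figure D1:**
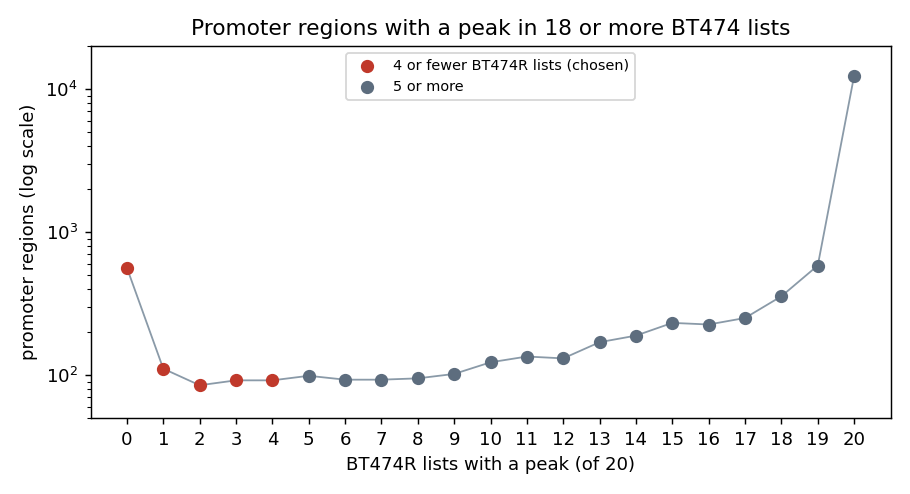
Number of promoter regions (vertical axis, log scale) by the number of BT474R lists with a peak (horizontal axis), among the 16196 regions with a peak in 18 or more BT474 lists; red points are the chosen promoters. Counts are highest at 20 lists (12374), fall to 85 at 2 lists and stand at 563 at 0 lists.

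At the edges of the rule, membership changed with 1 list. DHRS2 and PDLIM3 were just inside with 4 BT474R lists, at mean rank percentiles of 81.0 and 77.7 in BT474 (the rank of a peak's signal within its own list, from 0 for the weakest to 100 for the strongest). PLEKHG5 (78.4) and SATB1 (77.3) were just outside with 5. At the BT474 threshold, DNASE2B (40.7) and KLHL36 (38.3) were inside with 18 lists, and the promoter shared by NKX2-1 and SFTA3 (39.4) and that of ENSG00000253852 (36.5) were outside with 17. In all, 99 promoters lay just outside the BT474R limit and 112 just outside the BT474 limit.

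The number of chosen promoters with a peak was 861 to 942 per BT474 library (median 929.5) and 0 to 212 per BT474R library (median 13). The BT474R peaks were concentrated in a few libraries. HRG 24 h replicate 1 held 212 of the 925, baseline replicate 1 held 131, HRG 1 h replicate 2 held 115, and the vehicle controls at 1 h held 104 and 96. At 12 h the 6 BT474R libraries held 0 to 4 each. Replicates of 1 group could stand far apart, as with 212 and 7 for HRG at 24 h or 131 and 7 at baseline, so no order of the BT474R arms was read from these counts. Across the 20 BT474R libraries, which share the clone but not the number of peaks, the count went with the total number of peaks (Pearson's r = 0.774, Spearman's rank correlation = 0.907, n = 20, a description). The 12 h control libraries, with 1 and 0 chosen promoters, had 32479 and 40331 peaks, HRG 12 h replicate 2, also with 0, had 42604, and HRG 24 h replicate 1 had 55289. The part of depth in these counts was not tested.

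**Figure D2:**
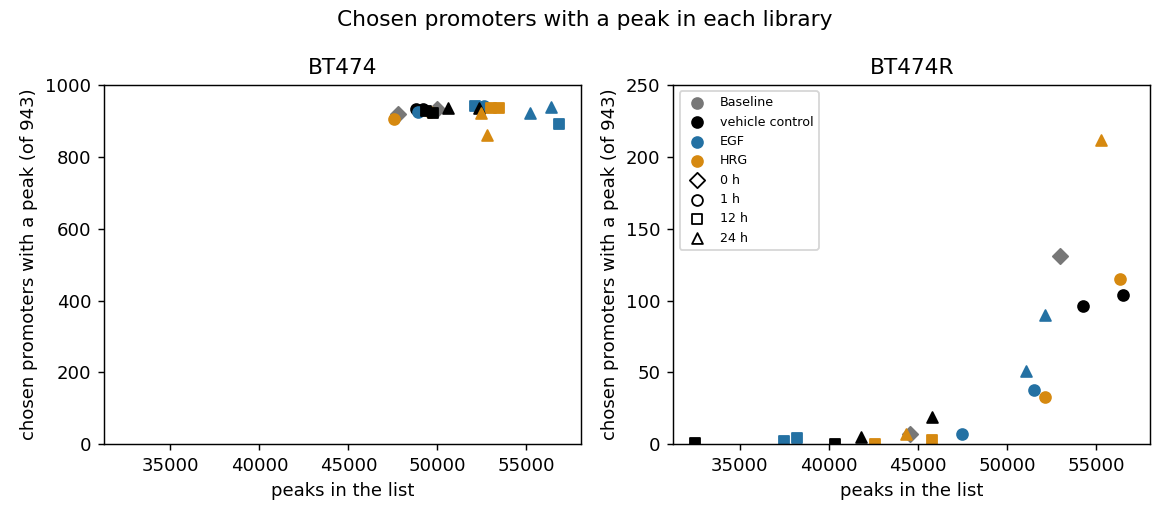
Chosen promoters with a peak in each library (vertical axis, of 943) against the number of peaks in the list (horizontal axis), for BT474 (left) and BT474R (right, with a smaller vertical range); colors are arms and symbols times. The BT474 libraries lie between 861 and 942, and the BT474R libraries between 0 and 212, with 212 in HRG 24 h replicate 1.

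Where BT474R did have a peak, it was mostly weak. The rule itself favored this, since a promoter with strong BT474R peaks would seldom be listed in so few BT474R libraries. The ranks are therefore a description. The 925 BT474R peaks at these promoters had a median rank percentile of 7.44 (quartiles 3.21 and 13.9, highest 60.3), against 34.5 (quartiles 21.4 and 49.8) for the 18485 BT474 peaks there.

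The chosen promoters were mostly weak sites in BT474 itself. Their median rank percentile there was 33.2 (quartiles 22.3 and 46.8), against 75.9 for all 16196 BT474 promoters and 82.7 for the 12281 with a peak in all 40 lists. The share chosen was 35.8% of the promoters ranked 10 to 25, 16.1% of those ranked 25 to 50, 3.90% at 50 to 75, 0.683% at 75 to 90 and 0.159% at 90 to 100. They were also narrower, with a median width of 576 bp against 1107 bp. When lists were reduced to peaks with a signal of 400 or more, only 278 of the 943 still met the rule, and when every list was reduced to its 32479 strongest peaks 245 did. In that last setting 222 of the 943 had no peak left in any BT474 list either. In both of these settings 244 promoters met the rule, so most of the list depended on which weak peaks were counted. For each gene below, "kept" means that its promoter met the rule in both. Both settings only took peaks away, so a chosen promoter failed them only through its BT474 peaks. Being kept thus describes the strength of the BT474 peaks and adds nothing on BT474R. A gene is said to keep another promoter where a second promoter region of it had a peak in 18 or more BT474R lists.

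Some of the strongest promoters in BT474 were nevertheless among the chosen. All 12 protein-coding promoters with the highest BT474 rank were kept, which followed from that rank. The highest was PRRT3, a proline-rich transmembrane protein gene, whose peak at chr3:9946354-9947732 ranked between 91.6 and 94.2 in the 20 BT474 lists (median 93.2). No BT474R list had a peak there. The promoter shared by CIDEB (lipid droplet fusion), LTB4R and LTB4R2 (the leukotriene B4 receptors), at chr14:24310296-24311346, ranked 89.4 to 92.7 (median 91.4) and had no BT474R peak. ARHGEF17, a guanine nucleotide exchange factor, ranked 88.8 to 93.1 (median 91.1), and PHF19, a Polycomb-associated protein that binds methylated histone H3, 86.7 to 91.0 (median 89.6). Neither had a BT474R peak. PRDM9, the histone methyltransferase that places meiotic recombination sites, ranked 86.9 to 91.0 (median 89.1) and CMTM3, a member of the chemokine-like factor family, 84.6 to 90.7 (median 87.1), again with no BT474R peak. AHRR, the repressor of the aryl hydrocarbon receptor (median 84.7), and TCAF1, a partner of TRP channels (median 82.3), completed the 8 of these 12 without any.

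The other 4 had residual peaks. SLCO4A1, an organic anion transporter, ranked 88.0 to 94.2 in BT474 (median 91.1) and had a single BT474R peak, in EGF 24 h replicate 1, at 26.6. The promoter between MFSD1 and RARRES1, the latter a retinoid-induced gene, ranked 88.8 to 92.6 (median 89.97) and had 1 peak in HRG 24 h replicate 1, at 16.1. ANKRD30B ranked 84.7 to 91.6 (median 88.2) with 1 peak at 1.24 in the same library. DHRS2, a short-chain dehydrogenase, ranked 75.8 to 85.8 (median 80.7) and had 4 BT474R peaks at 4.50 to 18.5. In these 4 the highest BT474R rank was far below the lowest BT474 rank.

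Among these genes, PRRT3, LTB4R, RARRES1, PRDM9, ANKRD30B and DHRS2 had no other promoter region with a peak in 18 or more BT474R lists. CIDEB, LTB4R2, SLCO4A1, ARHGEF17, PHF19, CMTM3, AHRR, TCAF1 and MFSD1 had one. The next 10 protein-coding promoters with 20 BT474 and 0 BT474R lists were SOX15 (mean rank 80.4), COLEC12 (79.4), CLK3 (78.3), SPTLC3 (78.1), SPAG16 (76.0), THEM4 (75.1), NPR3 (74.8), DDX60 (74.3), SEPTIN9 (73.8) and ATP8B2 (73.4), and all 10 were kept. SOX15 is a transcription factor, COLEC12 a scavenger receptor, CLK3 a splicing kinase, SPTLC3 a subunit of serine palmitoyltransferase, NPR3 the natriuretic peptide clearance receptor and DDX60 an interferon-induced helicase. SOX15 and COLEC12 varied most between BT474 libraries, from 54.8 to 89.2 and from 40.2 to 91.0. Of promoters with no protein-coding start, ENSG00000289332 (93.5), LINC00992 (88.2), BRWD1P2 (82.1), SLC24A3-AS1 (81.8) and LINC01637 (81.4) ranked highest, and only SLC24A3-AS1 had BT474R peaks, in both 1 h control libraries.

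**Figure D3:**
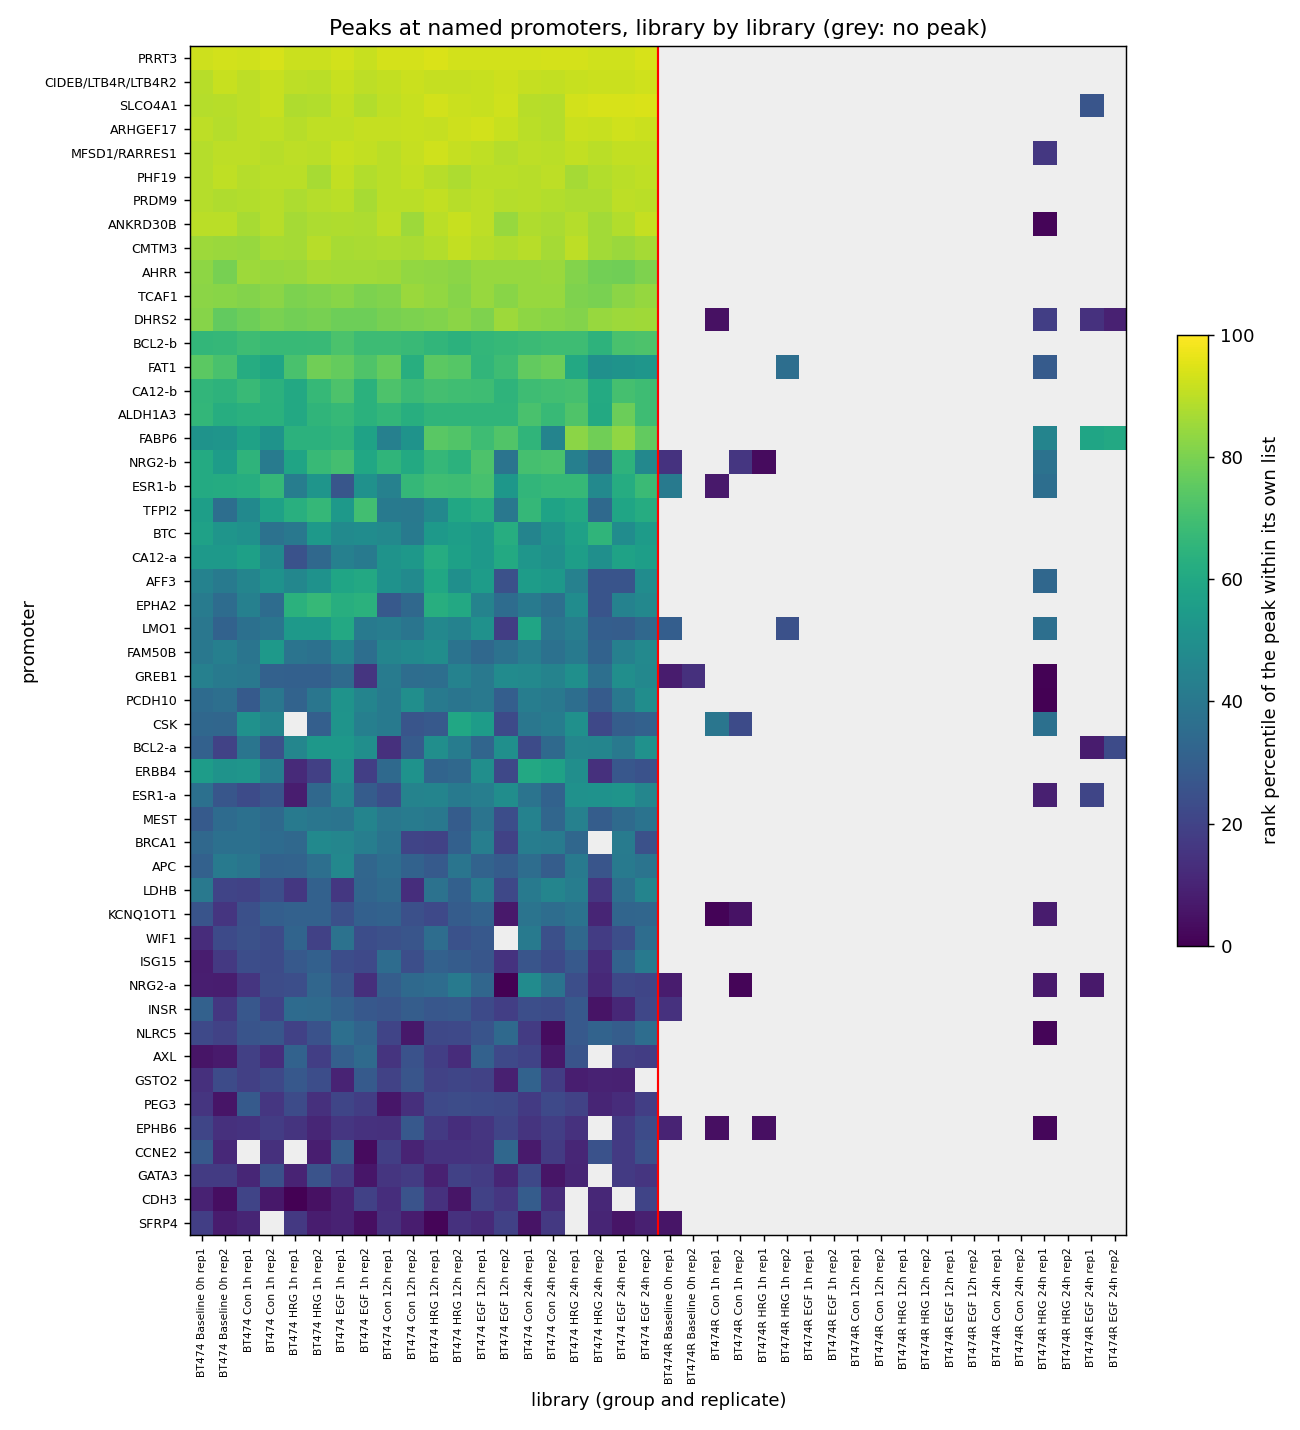
Rank percentile of the peak (color, 0 to 100) at 50 named promoters (rows, by mean BT474 rank) in the 20 BT474 libraries (left of the red line) and the 20 BT474R libraries (right); grey is no peak. The rows are the 12 highest protein-coding promoters, genes of the fixed lists and the promoters with the highest BT474R rank. FABP6 has the highest BT474R mean rank, 54.7 in 3 lists, and no BT474R list has a peak at PRRT3, ERBB4 or either CA12 region.

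The promoters whose residual BT474R peaks ranked highest were FABP6 (ileal bile acid binding protein, mean 54.7 in 3 lists), AFF3 (33.5 in 1), CSK (the kinase that restrains SRC, 32.9 in 3), FAT1 (a giant cadherin, 32.5 in 2) and LMO1 (30.4 in 3). For FABP6 the 3 BT474R ranks, 45.1 to 60.2, fell inside its BT474 range of 43.65 to 83.2. For CSK the 3 BT474R ranks, 22.7 to 39.3, likewise fell inside its BT474 range of 21.8 to 59.5. So did the AFF3 rank (33.5, BT474 range 24.7 to 60.2) and the 3 LMO1 ranks (24.9 to 36.6, BT474 range 18.3 to 60.4). For FAT1 the BT474R ranks, 28.9 and 36.2, lay below its lowest BT474 rank of 50.3. All 5 had a peak in HRG 24 h replicate 1.

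By class of gene, 681 of the 943 promoters (72.2%) had a protein-coding start within 1 kb, 191 (20.3%) had a long noncoding RNA start only, and 71 (7.53%) had neither. Over all 16196 BT474 promoters these shares were 85.9%, 11.0% and 3.09%. Of the 71, 31 were at a processed pseudogene. CpG-rich sequence (GC of 50% or more and an observed to expected CpG ratio of 0.6 or more in 500 bp) was found at 397 of the 943 (42.1%), against 69.6% of the 16196 and 75.2% of those with a peak in all 40 lists. The median GC was 58.8% against 65.2%. Put the other way, 3.52% of CpG-rich and 11.1% of other BT474 promoters were chosen. Rank and CpG content went together, since CpG-rich promoters had a median rank of 81.0 and the others of 57.1, and their separate parts were not tested.

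**Figure D4:**
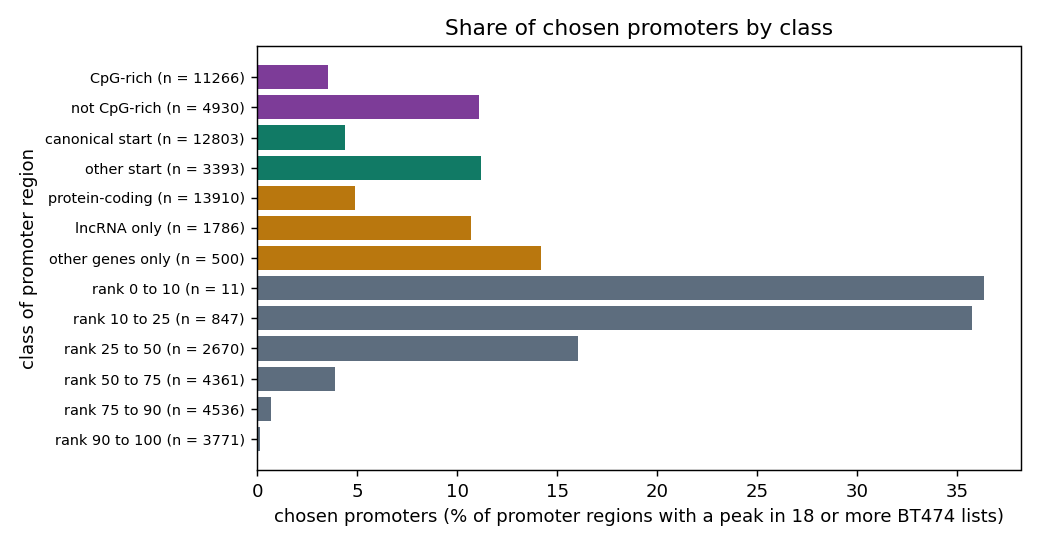
Share of BT474 promoter regions that were chosen (horizontal axis, %) by CpG class, kind of start, class of gene and mean rank percentile in BT474 (vertical axis, with the number of promoter regions). The share is 11.1% in promoters that are not CpG-rich and 3.52% in CpG-rich ones, and declines from 35.8% at rank 10 to 25 to 0.159% at rank 90 to 100.

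Letters of several general promoter motifs were less frequent within 100 bp of the summit. The GC box was present at 34.9% of the chosen promoters and 54.1% of the 16196. The ETS letters CCGGAAG were present at 4.14% against 11.7%, and the CCAAT box at 20.5% against 27.5%. The nuclear receptor letters AGGTCA was present at 12.2% against 7.11%, and the GATA letters AGATAA at 6.47% against 2.90%. Within the CpG-rich promoters the GC box shares were 61.5% and 68.4%, the ETS shares 7.05% and 14.9% and the CCAAT shares 17.4% and 29.3%. There the AGGTCA shares, 5.79% and 5.25%, and the GATA shares, 1.76% and 1.43%, were close. Within the others the AGGTCA shares were 16.8% and 11.3% and the GATA shares 9.89% and 6.25%. In these the GC box shares were 15.6% and 21.5% and the ETS shares 2.01% and 4.36%. The CCAAT shares in the others, 22.7% and 23.4%, were close. For AP-1 (TGANTCA) the order depended on the class, with 8.27% against 6.05% overall but 12.3% against 14.6% among promoters that were not CpG-rich. A match is a description of the letters and not a binding site.

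Many of the chosen promoters were alternative starts. Of the 681 with a protein-coding start, 353 (51.8%) held the canonical start, against 78.2% of all protein-coding BT474 promoters. For 292 the gene kept another promoter region with a peak in 18 or more BT474R lists, and for 389 it did not. Of the 353 at a canonical start, 278 (78.8%) left the gene with no such region. Of the 328 at other starts, 217 (66.2%) lay in a gene that kept one. Counted by gene, 677 of 12917 protein-coding genes with a BT474 promoter region (5.24%) had a chosen promoter, and 396 of them had no promoter region with a peak in 18 or more BT474R lists.

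The ERBB receptors and their ligands are the genes closest to the treatment, and 3 of 11 with a BT474 promoter region had a chosen one. ERBB4, the receptor that heregulin binds alongside ERBB3, had a peak at its canonical start in all 20 BT474 lists, ranked 11.7 to 60.3 (median 38.4), and in no BT474R list. No other ERBB4 promoter region had a peak in 18 or more BT474R lists. BTC, which encodes the EGF family ligand betacellulin, had a chosen alternative start at 37.7 to 65.4 (median 51.8) with no BT474R peak, and kept another promoter. NRG2, a neuregulin, had chosen promoters at both its canonical start (33.5 to 72.1, median 62.7) and an alternative one (0.331 to 48.2, median 24.0), each with 4 BT474R lists, and kept none. The highest BT474R rank at the canonical NRG2 start, 37.8, fell inside its BT474 range, as did all those at the alternative one. BTC and the canonical NRG2 promoter were kept under both stricter settings, while ERBB4 was not, since only 11 BT474 lists held its peak among their 32479 strongest.

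Of 36 other receptor tyrosine kinase genes, 4 had a chosen promoter. EPHA2, an ephrin receptor, ranked 25.9 to 67.0 (median 43.99) at an alternative start, and AXL, the GAS6 receptor, 5.64 to 34.4 (median 18.9), both with no BT474R peak and no other promoter region with a peak in 18 or more BT474R lists. INSR, the insulin receptor, and EPHB6 had another such region. None of these 4 was kept under both stricter settings. Of the 16 ERK feedback genes and the 17 PI3K and AKT genes with a BT474 promoter region, 0 had a chosen promoter. The same was true of the 10 basal and mesenchymal genes.

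Among 20 luminal and steroid receptor genes, ESR1, GREB1 and GATA3 had chosen promoters, and all 3 genes kept another. ESR1, the estrogen receptor, had a chosen region that held its canonical start (chr6:151807123-151808654), ranked 26.8 to 70.9 in BT474 (median 62.2), with BT474R peaks in baseline replicate 1, 1 h control replicate 1 and HRG 24 h replicate 1. A second ESR1 region upstream ranked 8.17 to 51.7 (median 39.6) with 2 BT474R lists. GREB1, an estrogen-induced gene, ranked 15.3 to 49.7 (median 40.7) at an alternative start. The GATA3 region was a weak alternative start, 5.60 to 25.5 (median 17.1), in 19 BT474 lists and no BT474R list. Of these 4 regions, only the one at the canonical ESR1 start was kept.

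Of 26 genes with a BT474 promoter region that are often silenced by DNA methylation in cancer, 6 (23.1%) had a chosen promoter. TFPI2, a protease inhibitor, ranked 34.1 to 69.9 (median 57.6) with no BT474R peak, and was the only one of the 6 kept. PCDH10, a protocadherin, ranked 28.3 to 51.5, and the Wnt antagonists WIF1 and SFRP4 12.8 to 40.7 and 1.22 to 19.1. None of these 4 genes had another promoter region with a peak in 18 or more BT474R lists. APC, the Wnt pathway suppressor, ranked 26.3 to 46.7, and BRCA1, a DNA repair gene, 19.7 to 47.6 at a region whose nearest start is that of NBR2, and both genes kept another promoter. Methylation was not measured here.

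In the remaining lists, 3 of 9 protein-coding imprinted genes had a chosen promoter (MEST, PEG3 and FAM50B, with no BT474R peak in any of the 3), and so did the imprinted noncoding RNA KCNQ1OT1. None of these 4 was kept. Of 13 drug metabolism and transport genes, 2 did. ALDH1A3, which makes retinoic acid, ranked 60.3 to 77.4 (median 65.5) with no BT474R peak, was kept, and had no other promoter region with a peak in 18 or more BT474R lists, while GSTO2 (8.47 to 31.5) had one and was not kept. Of 27 hypoxia and glycolysis genes, 2 did, and neither had another such region. CA12, a membrane carbonic anhydrase, had chosen regions at its canonical start (60.5 to 72.2, median 68.4) and downstream of it (25.1 to 62.0, median 53.5), both kept and both with no BT474R peak. LDHB, the lactate dehydrogenase B subunit, ranked 13.1 to 45.6 (median 31.8) and was not kept. Of 20 apoptosis genes only BCL2, the inhibitor of mitochondrial apoptosis, did. BCL2 had 2 chosen regions, both at alternative starts, and another promoter with a peak in 18 or more BT474R lists. One region ranked 64.4 to 72.2 (median 67.7) with no BT474R peak and was kept. The other ranked 14.0 to 53.4 (median 41.2), had BT474R peaks in both EGF 24 h libraries (7.53 and 22.7) and was not kept. Interferon and antigen presentation genes had 2 of 27 (ISG15 and NLRC5) and cell cycle genes 1 of 13 (CCNE2), and none of these 3 promoters was kept. ISG15, a ubiquitin-like interferon effector, ranked 8.02 to 41.4 at its only promoter region and had no BT474R peak. With so few genes a list, these shares are read only beside the 5.24% of all genes.

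By gene symbol class, chosen promoters were found for 14 of 96 ion channel genes (14.6%), among them CACNG4, GRIA2 and TRPC6, and 12 of the 14 had no promoter region with a peak in 18 or more BT474R lists. They were found for 15 of 102 G protein-coupled receptor genes (14.7%), among them NPY1R, PTGER2 and PTGER3, 14 of them without such a region. They were found for 5 of 21 cadherin and protocadherin genes, 23 of 233 solute carriers (9.87%), 7 of 81 homeobox genes (8.64%), 2 of 15 major histocompatibility complex genes, 1 of 13 keratin genes, 2 of 29 collagens and laminins, 12 of 191 ubiquitin ligases, 9 of 172 small GTPase regulators, 6 of 167 transmembrane protein genes of unknown role and 1 of 28 ADAM and matrix protease genes (TIMP2, an inhibitor). Zinc finger genes had 13 of 493 (2.64%), and histone genes had 0 of 59, tumor necrosis factor family genes 0 of 12 and cancer-testis genes 0 of 4. The genes named in this paragraph were picked as examples after their values were seen.

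The chosen promoters were spread over all chromosomes, from 1.97% of BT474 promoters on X and 2.66% on 22 to 9.01% on 3 and 9.79% on 4. In 10 Mb windows with at least 20 BT474 promoters, the highest shares were 13 of 30 (43.3%) at 160 to 170 Mb and 14 of 41 (34.1%) at 150 to 160 Mb of chromosome 4, followed by 6 of 24 at 160 to 170 Mb of chromosome 3 and 9 of 40 (22.5%) at 180 to 190 Mb of chromosome 4. The chromosome 4 windows held DDX60, PDLIM3 and FAT1 and, picked after their values were seen, TLR2 (an innate immune receptor), TRIM2, MAP9, GRIA2, NPY1R and NPY5R. The chr3:150000001-160000000 window, with MFSD1 and RARRES1, had 10 of 52 (19.2%). In the 3 chromosome 4 windows the promoters with a peak in all 40 lists also ranked lower in BT474R, by a median of -22.1 (n = 10), -14.9 (n = 17) and -14.4 (n = 23) percentile points, against -2.50 over all 12281. Shifts of that size also stood at windows with shares nearer the 5.82% of all BT474 promoters. The median was -18.6 (n = 17) at 140 to 150 Mb of chromosome 6, where 3 of 33 (9.09%) were chosen. At 130 to 140 Mb of chromosome 5, where 6 of 86 (6.98%) were chosen, it was -16.1 (n = 55). Other windows with high shares had smaller shifts. The median was -9.48 (n = 17) at 160 to 170 Mb and -7.70 (n = 33) at 150 to 160 Mb of chromosome 3. In the first 10 Mb of chromosome 18, where 9 of 44 (20.5%) were chosen, it was -3.12 (n = 31). Shift and share were not compared over all windows. The number of copies of these segments was not measured, and its part was not tested.

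Summed over the 943 promoters, 5469 neighboring regions within 100 kb had a peak in 18 or more BT474 lists. Of these, 68.7% had a peak in 18 or more BT474R lists and 14.1% in 4 or fewer, against 71.8% and 10.4% over all 40765 such regions. For 769 promoters at least 1 neighbor had a peak in 18 or more BT474R lists, and for 103 with neighbors none did. In total 172 promoters formed 80 runs in which the next was within 100 kb. No run had more than 3 members, and the 5 shortest of those with 3 are given. In FOXP1 (a forkhead repressor) 3 regions lay within 2301 bp, in DPP6 (a potassium channel subunit) within 10917 bp and in DIXDC1 (a Wnt pathway protein) within 12240 bp. SEPTIN9 had 3 regions within 82484 bp, and GFM1, MFSD1/RARRES1 and MFSD1 formed a run of 66702 bp.

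Within BT474, the signal of the peaks could be compared between arms, since the rule used only their presence. For each region with a peak in 18 or more BT474 lists, the log2 signal was quantile normalized and fitted with limma, and the mean difference of ligand and control over the 3 times was called at a Benjamini-Hochberg adjusted p below 0.05. The fit left a missing peak missing. With EGF, 56 of 938 chosen promoters tested were called higher (5.97%) and 77 lower (8.21%). Over all 40686 regions tested, 13.1% were called higher and 7.59% lower, so the share called higher was below that of all regions. Of the 40765 regions with a peak in 18 or more BT474 lists, 24569 lay outside promoters. The shares among BT474 promoters alone were not taken, so the lower share is not shown to be particular to the chosen ones. With HRG, 62 of 933 were called higher (6.65%) and 112 lower (12.0%), against 13.7% and 12.4% of all 40445 regions. The median difference over the chosen promoters was -0.09 with EGF and -0.08 with HRG, against -0.03 and -0.04 over all regions. With median centring in place of quantile normalization the calls over all regions turned to 4968 higher and 8613 lower with EGF and 5007 and 8294 with HRG, and those among the chosen promoters to 66 and 96 and to 59 and 151. The shares called lower were then 10.2% of the chosen promoters against 21.2% of all regions with EGF, and 16.2% against 20.5% with HRG, so how the chosen promoters stood to all regions in lower calls depended on the scaling. Both ligands are set against the same 6 control libraries.

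Single libraries moved the EGF count. EGF 12 h replicate 2 held 891 of the chosen promoters and HRG 24 h replicate 2 held 861, the lowest in BT474, and their median signal over the chosen promoters relative to the control mean was -0.22 and -0.25 on the log2 scale, while the other BT474 libraries lay between -0.12 and 0.05. Without EGF 12 h replicate 1, which leaves replicate 2 alone at that time, 231 promoters were called with EGF (62 higher, 169 lower) in place of 133, and the lower calls were 19.1% of the chosen promoters against 14.2% of all regions. Without replicate 2, 96 were (46 and 50), with lower calls at 5.34% against 4.94%. Without 24 h control replicate 1, 87 were called, 9.31% of the chosen promoters against 15.6% of all regions.

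Of the promoters called higher, MFSD1, at an alternative start apart from the promoter it shares with RARRES1, differed most. The only BT474R peaks of this region were in both EGF 24 h libraries. Its normalized log2 signal was 7.77 to 8.55 in the 6 controls (median 8.29), 8.93 to 9.85 with EGF (median 9.38) and 8.85 to 10.07 with HRG (median 9.74). No ligand library overlapped the controls, and the differences were 1.198 ± 0.10 (SE, limma adjusted p = 5.77e-07) with EGF and 1.35 ± 0.10 (adjusted p = 9.93e-08) with HRG. The 2 baseline libraries, 8.71 and 8.87, lay above every control and the higher of them above the lowest HRG library. By time the differences were 0.76, 1.16 and 1.67 at 1, 12 and 24 h of EGF and 0.63, 1.31 and 2.11 with HRG. IFT122, a ciliary transport protein, went from 8.41 to 8.67 in the controls (median 8.59) to 8.94 to 9.91 with EGF (median 9.50) and 8.61 to 10.00 with HRG (median 9.61), where 1 HRG library at 1 h overlapped, and 8.82 and 8.90 at baseline. Its differences were 0.84 ± 0.07 (limma adjusted p = 1.25e-06) and 0.86 ± 0.07 (adjusted p = 4.97e-07), and were small at 1 h (0.36 and 0.17) and larger at 12 h (1.17 and 1.32).

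COA1, a mitochondrial assembly factor, had 7.67 to 8.54 in 5 controls, the sixth having no peak, and 8.55 to 9.08 with EGF and 8.82 to 9.25 with HRG. Its baseline libraries had 8.43 and 8.69. The differences were 0.87 ± 0.10 (limma adjusted p = 2.57e-05) and 1.04 ± 0.10 (adjusted p = 2.95e-06). TK2, the mitochondrial thymidine kinase, was higher with HRG by 0.64 ± 0.07 (limma adjusted p = 4.04e-06), most at 1 h (0.80). MIR378H was higher with HRG by 0.92 ± 0.09 (limma adjusted p = 2.62e-06), with 0.07 at 1 h and 1.58 at 24 h, and an alternative start of TPRG1 was higher with EGF by 0.83 ± 0.10 (limma adjusted p = 3.12e-05), as was ENSG00000235978 by 0.74 ± 0.09 (limma adjusted p = 2.27e-05). The baseline medians were also above the control medians at MIR378H (8.74 against 8.27) and TPRG1 (9.47 against 8.88), so at MFSD1, IFT122, COA1, MIR378H and TPRG1 the difference from control was larger than that from baseline. Of the promoters named here as higher, TK2 and TPRG1 were kept, and MFSD1, IFT122, COA1, MIR378H and ENSG00000235978 were not. None of the promoters called higher with EGF was CpG-rich, and 2 of 62 with HRG were. Among those called lower, 34 of 77 and 28 of 112 were. The CpG-rich share of the calls over all regions was not taken. These counts are therefore not shown to be particular to the chosen promoters.

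**Figure D5:**
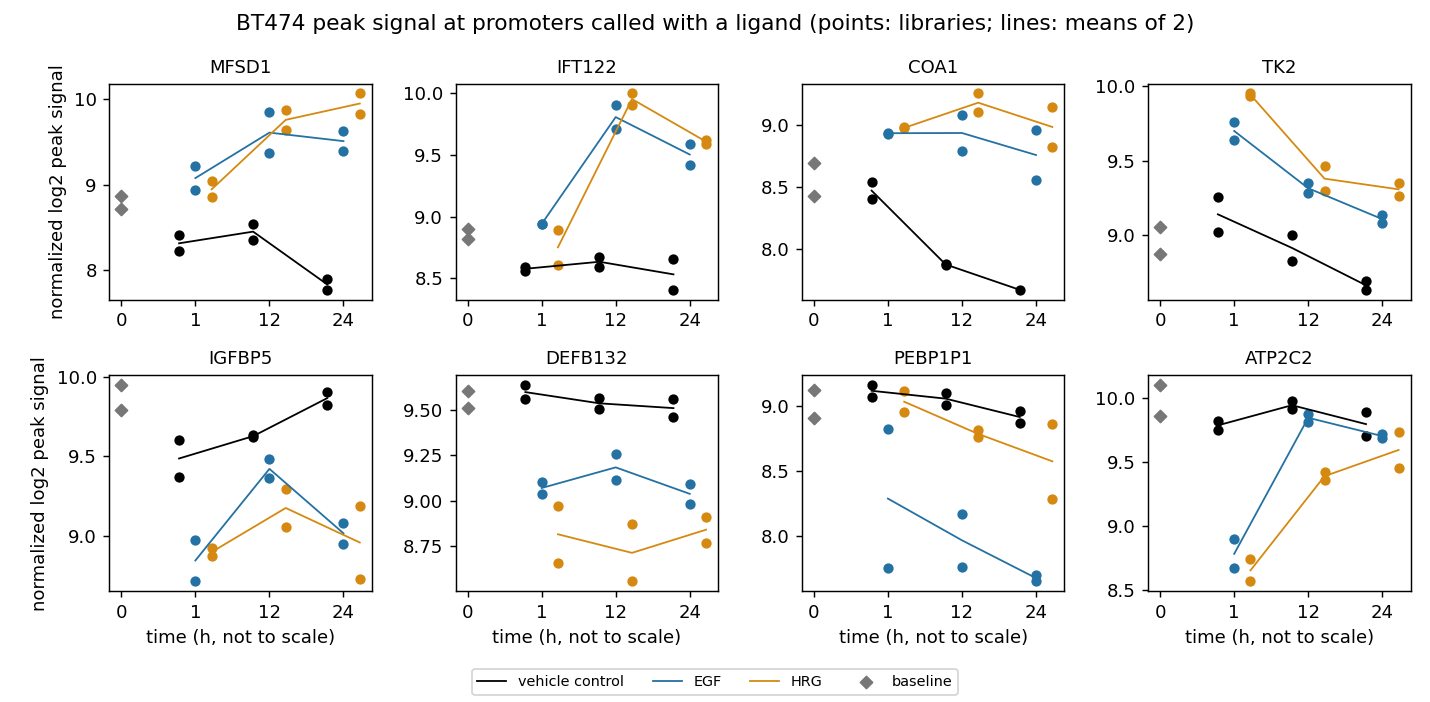
Normalized log2 peak signal in BT474 (vertical axis) at 8 chosen promoters called with a ligand, by time (horizontal axis, h, not to scale); each point is a library, lines join the means of the 2 libraries, and colors are arms. MFSD1 lies above all controls with both ligands and DEFB132 below all of them.

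Of the promoters called lower, DEFB132, a beta-defensin gene, had 9.46 to 9.64 in the controls (median 9.56), 8.99 to 9.26 with EGF (median 9.10) and 8.56 to 8.97 with HRG (median 8.82), with no overlap. The differences were -0.45 ± 0.08 (limma adjusted p = 0.000492) and -0.76 ± 0.08 (adjusted p = 2.31e-06). IGFBP5, an insulin-like growth factor binding protein, had 9.37 to 9.91 in the controls (median 9.63), 8.72 to 9.48 with EGF (median 9.03), which overlapped, and 8.73 to 9.30 with HRG (median 8.99), which did not. The differences were -0.56 ± 0.09 (limma adjusted p = 0.000185) and -0.65 ± 0.09 (adjusted p = 3.42e-05). PEBP1P1, a pseudogene, had 8.87 to 9.16 in the controls and 7.66 to 8.82 with EGF, with no overlap, a difference of -1.05 ± 0.15 (limma adjusted p = 9.07e-05). With HRG it was -0.23 ± 0.15 (limma adjusted p = 0.259), and the difference between the ligands was not tested. ATP2C2, a Golgi calcium pump, was lower with HRG by -0.63 ± 0.07 (limma adjusted p = 6.60e-06), most at 1 h (-1.13) and least at 24 h (-0.20). STS, the steroid sulfatase, and LINC01571 were lower with HRG by -0.52 ± 0.06 (limma adjusted p = 1.65e-05) and -0.42 ± 0.06 (limma adjusted p = 1.00e-04), and ENSG00000287342 and ENSG00000290967 were lower with EGF. All promoters named here as lower were kept except PEBP1P1 and ENSG00000287342.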

How the data were processed

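The authors trimmed the ATAC-seq reads with Trim Galore (0.6.6 per the labels), mapped them to GRCh38.p13 with BBMap and called peaks in each library with Genrich, without mitochondrial reads and blacklisted regions. The sources used here do not give the Genrich options. The deposited signal of a peak is the area under its significance curve. The deposited −log10 p and q and the deposited score were not used further. No peak reached past a chromosome end of the reference used.

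Peaks overlapping by 1 bp were merged, and transcript starts were taken from GENCODE release 44. Signal was summed over a library's peaks in a region and fitted with limma (3.58.1, R 4.3.3; trend, 10 BT474 group means, all 20 BT474 libraries) after a check on simulated data. A contrast could not be fitted where a group had no peak. CpG content was taken in 500 bp at the midpoint and motifs (17, both strands) within 100 bp of the median BT474 summit. The genes of the lists, the motifs and the rule for naming promoters were chosen with earlier results of these data known. The rule named promoters of listed genes, the 12 and next 10 by BT474 rank, 5 without a protein-coding start, up to 5 a direction by ligand, the 5 largest runs, those at the thresholds and the 5 with the highest BT474R rank. No other per-sample columns were left out. The list of adhesion genes is not reported here. Alternatives are given at the end.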

Additional observations from a re-analysis of the deposited data

How the results depend on the processing

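The number of chosen promoters was 943. It became 533 when only protein-coding transcripts of protein-coding genes counted as starts and 420 when all 20 BT474 lists and 0 BT474R lists were required, both by construction. Under the other alternatives it stayed within 1.5 times, from 681 (the 9 larger BT474R lists, an alternative chosen after seeing the data) to 1370 (16 or more and 6 or fewer lists). Leaving out each library in turn gave 943 to 1024. The limits used there let every chosen promoter pass again, so this range could not have shown a loss. A similar count did not mean the same promoters. With a signal of 400 or more there were 829, of which 278 were shared, and with an equal number of peaks per list 694, of which 245 were shared. Trimming peaks to 400 bp around the summit gave 1002, of which 910 were shared, and the baseline and control libraries alone 1057, of which 818 were shared.

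The replicate block, the replicate number as a term in the model, gave 136 calls with EGF in place of 133 and 186 with HRG in place of 174, and changed no call at a named promoter. The numbers did not pair the samples, since deviations of same-numbered libraries correlated above 0.1 in only 5 of 45 pairs of groups. The other alternatives that used all regions or libraries differently gave 114 to 162 calls with EGF and 137 to 210 with HRG. Leaving out each library in turn gave 87 to 231 with EGF and 129 to 206 with HRG, or 9.31% to 26.1% and 14.0% to 24.1% of the chosen promoters tested, while the calls over all regions ran from 15.2% to 29.8% and from 20.9% to 29.0%. All 536 alternative values at the promoters named for a ligand kept their direction and their side of the threshold. These were named for the lowest p-values in the same data, so this was likely beforehand and does not extend to the other called promoters. Depth limits the reading of absent peaks, which are not shown to be closed.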
